A study of Mus musculus with 16 samples.

Results

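Glucocorticoid-response genes including Fkbp5 were examined in single cells of the mouse spinal cord. The set held 8 genes of the 55487 listed in the count matrix: the receptor genes Nr3c1 and Nr3c2, the co-chaperone gene Fkbp5, and Tsc22d3, Sgk1, Zbtb16, Pdk4 and Per1, which glucocorticoids induce in many tissues. They were matched by symbol and had been selected on their levels across clusters, animals and time points in earlier results of these data. Differences among clusters, mice and time points are therefore given as a description, and no p, interval or critical value beside them is read as a test of the 8 genes. The choice did not name genotype, but genotypes are groups of the same mice, so for the 8 genes their comparison and the interaction of genotype with injury are descriptions too.

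Glucocorticoids such as corticosterone enter cells and bind the glucocorticoid receptor, made from Nr3c1, or the mineralocorticoid receptor, made from Nr3c2, which are held ready by heat shock proteins. The bound receptor moves to the nucleus and changes the transcription of target genes. One of them, Fkbp5, encodes a co-chaperone that lowers the receptor's affinity for the hormone in a short feedback loop. Injury, surgery and handling raise circulating glucocorticoids. In the spinal cord glia, endothelial cells and neurons all carry the receptor.

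The study asked how deletion of the Wnt receptor gene Ryk in astrocytes changes the response to a lesion of the dorsal columns at cervical level C5. Libraries of 3′ tags with unique molecular identifiers (UMIs) were made from dissociated spinal cord, 1 library per mouse. WT mice were Ryk+/+,GFAPcreERT2 and cKO mice Rykfl/fl,GFAPcreERT2. Both genotypes carried the inducible Cre, driven by the human GFAP promoter. Tamoxifen was given to both on 7 days in a row, the first dose 5 days ahead of surgery. All mice were 8 to 10 weeks old, and the labels list 2 WT and 2 cKO mice in each of 4 states: without injury (named Sham in the labels and uninjured in the study's methods, taken 14 days after the deletion was induced) and at 1, 7 and 14 days after the lesion (1 d, 7 d, 14 d). Cells were released with pronase in the presence of actinomycin D, which blocks new transcription, so transcripts induced during digestion are limited by design.

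The matrix held 18203 cells of 16 mice. WT 1 d replicate 2 had 1 cell with 266 UMIs and was left out. WT at 1 d was thus a single mouse, and 15 mice remained, 4 uninjured, 3 at 1 d, 4 at 7 d and 4 at 14 d. Their libraries ranged from 536263 UMIs in 1025 cells (WT 1 d replicate 1) to 9008729 UMIs in 1521 cells (cKO 7 d replicate 2). cKO uninjured replicate 1 had 208 cells. The first replicates of both genotypes at 1 d and at 7 d were shallow libraries, with medians of 414, 421, 414 and 548 UMIs per cell, against 1040.5 to 3637 in the other 11 mice. Of the 18203 cells, 432 had a barcode found in more than 1 library (166 barcodes), 358 of them in the 4 shallow libraries. Between 28 and 115 barcodes were shared by each pair of shallow libraries and at most 4 by any other pair. The conditions in the cell table matched the sample titles in all 16 mice, but in 6 of them, all replicate 2, the condition written into the cell names differed; the titles were followed. The batch number in the cell table equalled the replicate number in all 16 mice. UMIs of the cells of 1 mouse in 1 of the authors' 17 clusters were summed, where it had at least 10 such cells, and levels are given as CPM of those UMIs. Free RNA was not removed and no doublets were taken out beyond the authors' filters, so a low level in a cluster may include transcripts of other cells.

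The cluster labels were checked against marker lists. In 14 of the 17 clusters the list of the labelled type led, taking macrophage markers as those of the immune cells of Cluster 12. In Cluster 10, labelled microglial, macrophage and antigen-presenting markers stood 5.52-fold over all cells (most abundant, Lyz2) and microglial markers 3.68-fold, so it is named by its number below. Cluster 13, labelled unknown, was led by ependymal markers (46.6-fold), and Cluster 16, labelled myeloid, by neutrophil markers (113-fold, most abundant S100a9). Clusters 1 to 11 had enough mice to be tested (at least 9, with at least 2 uninjured and at least 1 at each time). In 6 of the 11 (Clusters 2, 5, 6, 8, 10 and 11) only 3 uninjured mice had enough cells, 1 of them cKO. Cluster 2 had no WT mouse at 1 d, so its difference at 1 d is that of 1 cKO mouse, and 1 d was left out of its genotype and interaction fits.

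Ryk itself was counted over those of the 3 astrocyte clusters (Clusters 2, 5 and 7) in which a mouse had at least 10 cells. In cKO uninjured replicate 1 this was Cluster 7 alone. In the first replicates of WT at 1 d, cKO at 1 d and cKO at 7 d it was Clusters 5 and 7. The levels of these mice therefore cover fewer clusters than those of the others. Its level was 122.9 and 53.96 CPM in the WT uninjured mice, 78.2 and 85.1 CPM in the cKO uninjured mice, 103 CPM in the WT mouse at 1 d and 24.0 and 69.0 CPM in the cKO mice at 1 d. At 7 d it was 157 and 116 CPM in WT and 94.0 and 119 CPM in cKO, and at 14 d 105 and 108 CPM in WT and 121 and 123 CPM in cKO. The genotypes overlapped; since 3′ tags can lie outside the deleted part of the gene, these counts check nothing about the deletion.

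One mouse stood apart from its group in Fkbp5, and less so in some other members. For each gene, the level of each mouse in each tested cluster was written as log2(CPM + 50), the mean of the cluster over mice was subtracted, and the remainders were averaged over the clusters of the mouse; the result is called the deviation of that mouse. For Fkbp5 the deviation was 0.72 in WT uninjured replicate 1, against -0.42, -0.47 and -0.41 in WT uninjured replicate 2 and cKO uninjured replicates 1 and 2. The other mice above 0 were those at 1 d, at 0.29 in WT and 1.61 and 0.63 in cKO, while the 8 mice at 7 d and 14 d lay between -0.40 and -0.13. WT uninjured replicate 1 therefore lay among the mice at 1 d and outside the range of the other uninjured mice. It was not a shallow library (median 2306.5 UMIs per cell), its median mitochondrial share of 4.39% lay within the range of the other uninjured mice (1.36% to 6.31%), and its cell names, cell table and title gave the same condition. The median deviation of 12 immediate early and dissociation genes in it was -0.07, the 13th of 15 mice from the top. The animal number of this mouse in the labels, 1771, was the lowest of the 16, and the next was 3814. Several values below that rest on the uninjured group are also given without this mouse; whether its handling, hormone level or labelling differed was not tested.

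**Figure D1:**
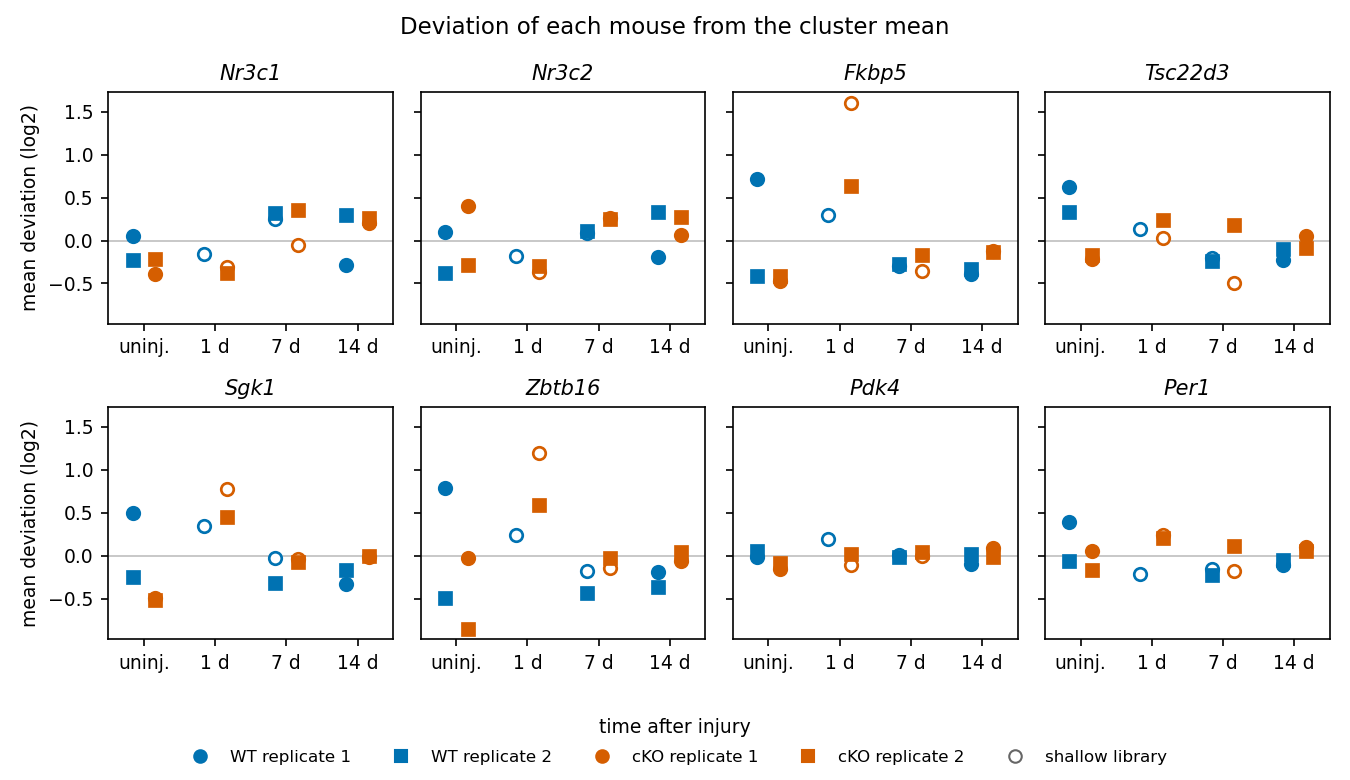
Deviation from the cluster mean (log2, averaged over the tested clusters of a mouse) of the 8 genes, by time after injury, 1 point per mouse (blue, WT; orange, cKO; circles, replicate 1; squares, replicate 2; open, shallow library). In the panels of Fkbp5, Sgk1 and Zbtb16 the 4 highest points are the 3 mice at 1 d and 1 uninjured WT mouse.

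Nr3c1 encodes the glucocorticoid receptor, and its 10975 UMIs were spread over all 17 clusters. Its mean level was highest in endothelial cells (314 ± 91.7 CPM, SD, n = 15 mice). It was followed by the neutrophil-marked Cluster 16 (240.5 ± 73.4, n = 5), pericytes (219 ± 71.4, n = 15), the astrocytes of Cluster 7 (216 ± 70.8, n = 15) and fibroblasts (205 ± 81.0, n = 9). It was lowest in red blood cells (30.9 ± 36.0, n = 4), in neurons (74.3 ± 37.9, n = 15) and in Cluster 13 (81.8 ± 46.3, n = 10). The order was a gradient: of the 16 pairs of neighbours, only neurons and red blood cells differed within mice by more than the SD of that difference.

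In endothelial cells the Nr3c1 level was 303 and 228 CPM in the WT uninjured mice and 284 and 231 CPM in the cKO uninjured mice. At 1 d it was 256 CPM in WT and 223 and 163 CPM in cKO. At 7 d it was 405 and 468 CPM in WT and 297 and 424 CPM in cKO, and at 14 d 249 and 375 CPM in WT and 400.3 and 404 CPM in cKO. The mice at 7 d and 14 d reached higher levels than any uninjured or 1 d mouse, except cKO 7 d replicate 1, a shallow library, and WT 14 d replicate 1, which overlapped the uninjured range. Averaged over the tested clusters, the Nr3c1 deviation was -0.39 to 0.05 in the 4 uninjured mice and -0.37 to -0.16 in the 3 mice at 1 d. It was -0.05 to 0.36 in the 4 mice at 7 d and -0.28 to 0.30 in the 4 at 14 d, with WT 14 d replicate 1 alone below 0 among the latter. Without WT uninjured replicate 1 the uninjured mean moved from -0.19 to -0.28. Without the shallow libraries the mean of the 2 remaining mice at 7 d was 0.34, against 0.22 in all 4.

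Nr3c2 encodes the mineralocorticoid receptor, which binds corticosterone more tightly than the glucocorticoid receptor does and in the nervous system is best known from hippocampal neurons. Here its mean level was highest in the astrocytes of Cluster 7 (604 ± 157 CPM, n = 15 mice). Within mice it exceeded the next, fibroblasts (345 ± 234, n = 9), by 0.89 ± 0.64 on the log2 scale, in 9 of 9 mice. Endothelial cells (269.6 ± 105, n = 15), neurons (265 ± 70.8, n = 15) and pericytes (213 ± 63.0, n = 15) came next and did not differ from their neighbours beyond the SD. The astrocytes of Clusters 5 and 2, which had the high mitochondrial shares given above, held 138 ± 139 CPM (n = 14) and 70.1 ± 124 CPM (n = 11). Cluster 16 held 2.54 ± 5.68 CPM (n = 5), with 4 UMIs in all.

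In Cluster 7 the Nr3c2 level was 464 and 630.3 CPM in the WT uninjured mice and 469.5 and 759 CPM in the cKO uninjured mice. It was 354 CPM in WT and 541 and 509 CPM in cKO at 1 d, and 478 and 583 CPM in WT and 505 and 831 CPM in cKO at 7 d. The mice at 14 d had 550.3 and 875 CPM in WT and 815 and 697 CPM in cKO. Every mouse held the transcript and the time points overlapped; the lowest value was the WT mouse at 1 d. Over clusters, the Nr3c2 deviation of the 3 mice at 1 d lay between -0.37 and -0.18, below all 4 mice at 7 d (0.09 to 0.27), and the uninjured mice spanned both, from -0.38 to 0.40.

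Fkbp5 encodes the co-chaperone FKBP51 and is widely used as a readout of receptor activity. Its 2737 UMIs gave mean levels of 186 ± 120.0 CPM in fibroblasts (n = 9 mice) and 183 ± 169 CPM in the microglia of Cluster 6 (n = 14), which did not differ within mice (-0.05 ± 0.97, log2). Cluster 6 exceeded Cluster 10 (107 ± 84.9 CPM, n = 14) in 13 of 14 mice, by 0.48 ± 0.42. No later pair of neighbours differed beyond its SD, down to endothelial cells (27.7 ± 43.1, n = 15), pericytes (25.4 ± 41.3, n = 15) and Cluster 13 (5.58 ± 10.1, n = 10). At least 1 Fkbp5 UMI was seen in 25% of 1316 cells of Cluster 6 (exact Clopper-Pearson 95% interval 22.7% to 27.4%) at a median of 780.5 UMIs per cell. It was seen in 2.95% of 271 cells of Cluster 13 (1.28% to 5.73%) at a median of 1707 UMIs. Both intervals take cells as independent and leave out the variation between mice. The share was lowest in the astrocytes of Cluster 2, at 0.907% of 1213 cells (median 834 UMIs). These cells had a median mitochondrial share of 11.3%.

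The spread over mice in Fkbp5 was as large as the mean in most clusters, and it followed the mouse. In the microglia of Cluster 6 the level was 435 and 123 CPM in the WT uninjured mice and 78.9 CPM in cKO uninjured replicate 2. At 1 d it was 63.0 CPM in WT and 656 and 283 CPM in cKO. At 7 d it was 128 and 129 CPM in WT and 64.9 and 149 CPM in cKO, and at 14 d 66.5 and 104 CPM in WT and 134 and 142 CPM in cKO. The cKO mice at 1 d and WT uninjured replicate 1 stood above the rest, and the WT mouse at 1 d, a shallow library, was the lowest in this cluster.

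The oligodendrocytes of Cluster 4 gave a sharper split. There Fkbp5 stood at 105 CPM in WT uninjured replicate 1 and at 9.33, 0 and 12.7 CPM in the other uninjured mice. At 1 d it was 63.1 CPM in WT and 268 and 66.8 CPM in cKO, and the 8 mice at 7 d and 14 d had 0 to 25.3 CPM. All 3 mice at 1 d lay above the other 3 uninjured mice and above every mouse at 7 d and 14 d. Counted over the 11 tested clusters, every 1 d mouse measured lay above every uninjured mouse other than WT uninjured replicate 1 in 9 clusters for Fkbp5. The count was 7 for Zbtb16, 6 for Sgk1, 3 for Tsc22d3, 2 each for Nr3c1, Nr3c2 and Per1, and 1 for Pdk4. That mouse was set aside because its Fkbp5 level was high, so these counts are a description. No share over all genes stands beside them, so whether such separation was unusual cannot be told. Cluster 2 had 1 mouse at 1 d, and in 6 of the 11 clusters only 3 uninjured mice had enough cells. WT uninjured replicate 1 was above replicate 2 in 10 of 11 clusters, by 1.14 ± 0.64 on average (log2, SD over clusters of these 2 mice).

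In the astrocytes of Cluster 7, the cell type meant to lose Ryk, Fkbp5 was at 136 CPM in WT uninjured replicate 1, 0 CPM in replicate 2 and 13.04 and 5.34 CPM in the cKO uninjured mice. At 1 d it was 0 CPM in the shallow WT library and 289 and 165 CPM in the cKO mice. From 7 d on it was at most 11.4 CPM in 7 of 8 mice and 56.1 CPM in cKO 7 d replicate 1, a shallow library. Only 1 WT mouse was measured at 1 d, so the state of Fkbp5 in WT astrocytes at that time rests on 31040 UMIs of 1 library, in which the counting floor of 3 UMIs is 96.6 CPM.

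The mean Fkbp5 deviation over time was -0.14 ± 0.58 in the 4 uninjured mice, 0.84 ± 0.68 in the 3 mice at 1 d, -0.27 ± 0.08 in the 4 at 7 d and -0.25 ± 0.14 in the 4 at 14 d (SD). Without WT uninjured replicate 1 the uninjured mean was -0.43 ± 0.03. Without the shallow libraries 1 mouse remained at 1 d, at 0.63. So the 1 d mice overlapped the uninjured mice with that mouse and lay above all 3 others without it. WT uninjured replicate 1 was picked out by its high Fkbp5 level, so the comparison without it is a description only.

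Sgk1 encodes a kinase that regulates ion channels and transporters and is induced by both receptors. Of its 6987 UMIs the highest mean was in the oligodendrocytes of Cluster 4 (291 ± 354 CPM, n = 15 mice), then in Cluster 10 (251 ± 83.0, n = 14), the microglia of Cluster 6 (197 ± 65.0, n = 14), the oligodendrocytes of Cluster 8 (184 ± 255, n = 14) and endothelial cells (167 ± 78.5, n = 15). No neighbours in the order of 17 differed beyond the SD within mice. The lowest mean was in the astrocytes of Cluster 7 (7.96 ± 16.6, n = 15), where 7 mice had no UMI.

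In Cluster 4 the Sgk1 level was 942 and 103 CPM in the WT uninjured mice and 49.8 and 12.7 CPM in the cKO uninjured mice. At 1 d it was 457 CPM in WT and 1211 and 553 CPM in cKO. At 7 d it was 179 and 96.2 CPM in WT and 158 and 162 CPM in cKO, and at 14 d 106 and 67.3 CPM in WT and 145 and 125 CPM in cKO. Again WT uninjured replicate 1 stood with the mice at 1 d, and the other 3 uninjured mice overlapped or lay below those at 7 d and 14 d. Cluster 8, the other oligodendrocytes, split in the same way, with 696 CPM in WT uninjured replicate 1, 313 to 778 CPM in the mice at 1 d and at most 107 CPM in the rest. In the microglia of Cluster 6 the order was different: WT uninjured replicate 1 had 147 CPM, below the 302 CPM of WT uninjured replicate 2 and the 332 CPM of cKO uninjured replicate 2. The mice at 1 d (84.0 to 219 CPM) overlapped those at 7 d and 14 d (138 to 244 CPM). Averaged over clusters, the Sgk1 deviation was 0.49 in WT uninjured replicate 1, 0.34 to 0.78 in the mice at 1 d and -0.52 to -0.01 in the other 11. The uninjured mean of -0.19 was -0.42 without that mouse.

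Zbtb16 encodes the zinc finger protein PLZF, a transcriptional repressor. Of its 6690 UMIs the highest mean was in endothelial cells (250.03 ± 247 CPM, n = 15 mice), followed by the oligodendrocytes of Cluster 4 (201 ± 171, n = 15), oligodendrocyte precursors (151 ± 146, n = 14), the astrocytes of Cluster 7 (146 ± 40.9, n = 15) and neurons (137 ± 87.6, n = 15). It was lowest in Cluster 10 (11.7 ± 18.3, n = 14) and the microglia of Cluster 6 (6.30 ± 9.85, n = 14), and no neighbours differed beyond the SD.

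In endothelial cells Zbtb16 was at 749 and 76.8 CPM in the WT uninjured mice and 146 and 23.7 CPM in the cKO uninjured mice. It was at 256 CPM in WT and 902 and 192 CPM in cKO at 1 d, 238 and 79.0 CPM in WT and 178 and 236 CPM in cKO at 7 d, and 93.8 and 89.1 CPM in WT and 255 and 236 CPM in cKO at 14 d. WT uninjured replicate 1 and cKO 1 d replicate 1 were far above the rest, and the other mice at 1 d overlapped those at 7 d and 14 d. In the astrocytes of Cluster 7 the range over all 15 mice was only 80.2 to 230.3 CPM, so the variation seen in endothelial cells was not shared by every cluster. The Zbtb16 deviation over clusters was 0.79 in WT uninjured replicate 1, 0.24 to 1.20 in the mice at 1 d and -0.85 to 0.05 in the other 11. Its uninjured mean of -0.14 was -0.45 without that mouse.

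**Figure D2:**
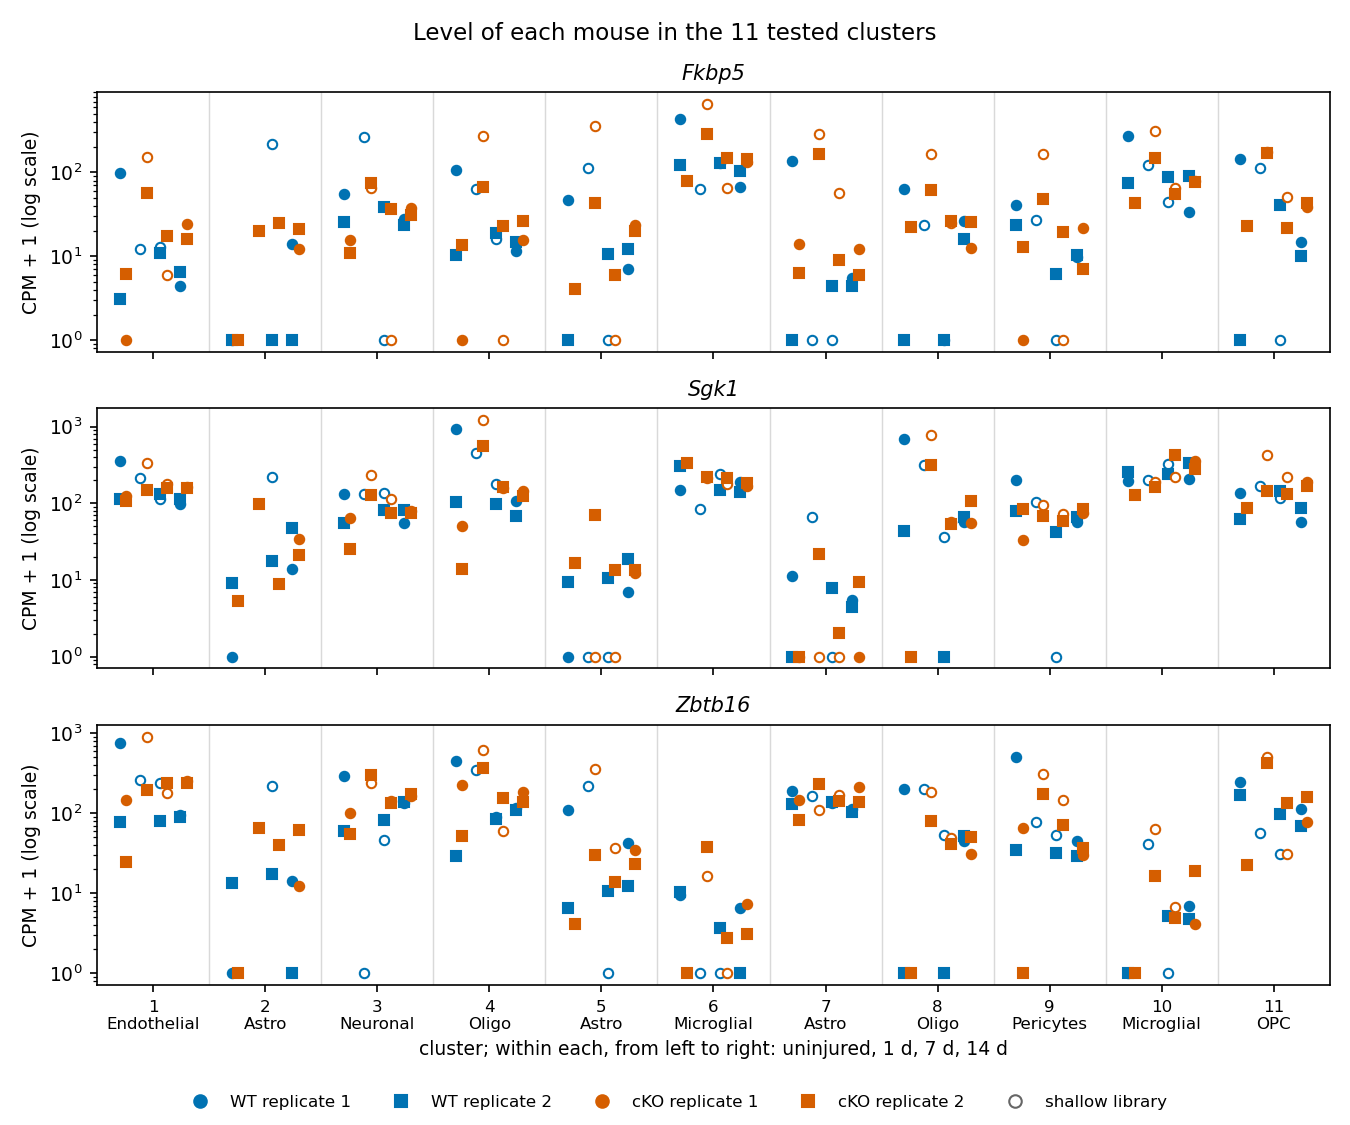
Level (CPM + 1, log scale) of Fkbp5, Sgk1 and Zbtb16 in each mouse and tested cluster; within a cluster the points run from uninjured on the left through 1 d and 7 d to 14 d (blue, WT; orange, cKO; circles, replicate 1; squares, replicate 2; open, shallow library). In Cluster 4 the filled blue circle of WT uninjured replicate 1 lies with the points of 1 d for all 3 genes.

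Tsc22d3 encodes GILZ, a leucine zipper protein that mediates anti-inflammatory effects of glucocorticoids. Its mean level was highest in Schwann cells (215 ± 110.0 CPM, n = 5 mice), then in the astrocytes of Cluster 7 (167 ± 60.4, n = 15) and Cluster 16 (152 ± 91.1, n = 5), and lowest in oligodendrocyte precursors (18.5 ± 20.2, n = 14), with no neighbours apart beyond the SD. In Cluster 7 it was at 283 and 239 CPM in the WT uninjured mice, 169.5 and 208 CPM in the cKO uninjured mice, 129 CPM in WT at 1 d and 180.3 and 217 CPM in cKO at 1 d. Later levels were, at 7 d, 106 and 85.7 CPM in WT and 56.1 and 185 CPM in cKO, and at 14 d 134 and 171 CPM in WT and 207 and 136 CPM in cKO. The uninjured mice were the higher ones in these astrocytes and overlapped the mice at 1 d and 14 d, whereas 3 of the 4 mice at 7 d lay below them. Over clusters its deviation was highest in both WT uninjured mice (0.62 and 0.34), so this gene set WT uninjured replicate 1 less apart from its replicate than Fkbp5 did.

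Pdk4 encodes a kinase that switches off pyruvate dehydrogenase, and Per1 encodes a component of the circadian clock that glucocorticoids also induce. Pdk4 gave 329 UMIs in all: its mean was 25.8 ± 27.4 CPM in Schwann cells (n = 5 mice), 19.7 ± 19.8 in the astrocytes of Cluster 5 (n = 14), 19.0 ± 23.4 in those of Cluster 7 (n = 15) and 16.5 ± 12.3 in the oligodendrocytes of Cluster 8 (n = 14). None of the 1316 cells of Cluster 6 had a Pdk4 UMI, which allows a share of cells with a UMI of up to 0.280% if cells are independent. Its deviations lay between -0.16 and 0.20 with the time points overlapping. Per1 gave 1718 UMIs and mean levels from 7.52 ± 8.60 CPM in oligodendrocyte precursors (n = 14) to 46.2 ± 30.0 in pericytes (n = 15) and 63.4 ± 68.2 in Schwann cells (n = 5). In pericytes Per1 was at 78.7 and 11.4 CPM in the WT uninjured mice, 32.2 and 12.03 CPM in the cKO uninjured mice, 77.6 CPM in WT at 1 d and 94.7 and 80.3 CPM in cKO at 1 d. It was between 0 and 66.5 CPM in the 8 mice at 7 d and 14 d. In this cluster, with 141 UMIs, the mice at 1 d and WT uninjured replicate 1 were the highest 4. Over clusters the Per1 deviation was 0.39 in WT uninjured replicate 1, -0.17 to 0.06 in the other uninjured mice and 0.25 and 0.20 in the cKO mice at 1 d. In the WT mouse at 1 d it was -0.21, 14th of 15, and the mice at 7 d and 14 d lay between -0.22 and 0.12.

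The deviations were compared between genes over the 15 mice. Among 9194 genes, the 5 most like Fkbp5 were Sgk1 (Pearson's r 0.926, Spearman's rho 0.911), Zbtb16 (0.918, rho 0.768), Fam107a (0.911, rho 0.786), Sult1a1 (0.877, rho 0.5679) and Hif3a (0.869, rho 0.632). Fam107a, Sult1a1 and Hif3a were on the list of 34 other glucocorticoid-induced genes, of which 24 were measured here. That list was chosen with earlier results of these data known. Without cKO 1 d replicate 1 and WT uninjured replicate 1, the 2 mice farthest from the median of Fkbp5, r was 0.893 for Sgk1, 0.7999 for Zbtb16, 0.847 for Fam107a, 0.596 for Sult1a1 and 0.622 for Hif3a. In batch 1 (8 mice) it was 0.933, 0.977, 0.965, 0.935 and 0.905 in the same order, and in batch 2 (7 mice) 0.925, 0.906, 0.946, 0.507 and 0.918. These values describe mice that share library depth and handling, and carry no p. The remaining members were less alike: Per1 had r of 0.660 with Fkbp5 (rho 0.4929), Tsc22d3 0.482 (rho 0.514), Pdk4 -0.016 (rho 0.200), Nr3c1 -0.277 (rho 0.136) and Nr3c2 -0.424 (rho -0.207). In the same order, r without those 2 mice was 0.382, 0.522, 0.546, -0.156 and -0.329, and without the shallow libraries 0.810, 0.728, 0.279, -0.0125 and -0.103. Pdk4, with 329 UMIs in all, did not reach the level asked of the genes compared over mice (20 CPM on average in at least 3 tested clusters). Its values rest on few counts.

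The nearest genes of the other members over mice were Fkbp5 for Sgk1, Stk32a for Zbtb16 (r 0.955), Alg11 for Tsc22d3 (0.783), Jmy for Nr3c1 (0.929), Frmd6 for Nr3c2 (0.928), Sept9 for Pdk4 (0.876) and Slc24a4 for Per1 (0.861). Over the 17 clusters, among 14506 genes, the nearest to Fkbp5 were Gm49839 (r 0.936), Slc41a3 (0.847), Dock11 (0.822), Cryl1 (0.820) and Abraxas2 (0.807). None of these 5 was among the 5 nearest over mice, and Sgk1 and Zbtb16 had r of 0.276 and -0.1598 with Fkbp5 over clusters. The nearest gene over clusters was Chn2 for Sgk1 (r 0.823), Dstyk for Zbtb16 (0.855), Tiparp for Tsc22d3 (0.740), Atf7 for Nr3c1 (0.855), Ghr for Nr3c2 (0.916), Paqr6 for Pdk4 and Decr2 for Per1. Both nearest genes of Pdk4, Sept9 and Paqr6, rest on its few UMIs.

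Genotype was compared over all times with the quasi-likelihood test of edgeR, using Benjamini-Hochberg adjustment in each of the 11 tested clusters. Of 88 pairs of a member and a cluster, 74 passed the filter on low counts: Nr3c1, Nr3c2 and Sgk1 passed in 11 clusters each, Fkbp5, Tsc22d3 and Zbtb16 in 10, Per1 in 9 and Pdk4 in 2. No member differed between cKO and WT at an adjusted p under 0.05, against 0% of all 80026 tests of a gene in a cluster; DESeq2 also called 0 genes and limma called 106 genes and 0 members. Of the 74 member tests, 3 (4.05%) had an unadjusted p under 0.05, as did 3.63% of all tests. There were 7 of 73 without WT uninjured replicate 1, against 3.73% of all tests. In the clusters where each member was highest among those tested, the difference cKO minus WT was 0.33 ± 0.38 for Fkbp5 in Cluster 6 (log2 ± SE), 0.34 ± 0.23 for Nr3c2 in Cluster 7, -0.07 ± 0.17 for Nr3c1 in endothelial cells and 0.35 ± 0.27 for Tsc22d3 in Cluster 7. It was -0.56 ± 0.39 for Sgk1 in Cluster 4, 0.12 ± 0.44 for Zbtb16 in endothelial cells, -0.72 ± 0.62 for Pdk4 in Cluster 5 and -0.09 ± 0.47 for Per1 in pericytes. Each of these 8 differences was smaller than 2 of its standard errors. The Fkbp5 difference was -0.45 without the shallow libraries and -0.53 without WT 1 d replicate 1, and those of Tsc22d3, Zbtb16, Nr3c1 and Per1 also changed sign under at least 1 alternative.

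Whether the difference after injury depended on genotype was fitted as an interaction, which rests on the uninjured mice: 4, or 3 with a single cKO mouse in 6 of the 11 clusters. No member passed by the quasi-likelihood test of edgeR with Benjamini-Hochberg adjustment, against 0.0025% of all tests (2 of 80026: Kcnj3 and Col16a1, both in Cluster 7, named after their values were seen). DESeq2 called 1 gene in all (0.00125%), the member Sgk1 in Cluster 4 (4.67 on the log2 scale, adjusted p 0.0174), where the edgeR value was 4.76 ± 0.98 with an adjusted p of 1.00; over the alternatives tried the adjusted p ranged from 5.37e-05, without a filter on low counts, to 1.00. Unadjusted p was under 0.05 in 20 of 74 member tests, all positive, and in 4.03% of all tests. Since the members were selected on values across mice and time points, this excess is a description. Without WT uninjured replicate 1 there were 6 of 73, against 3.82% of all tests. The positive sign means that cKO rose more or fell less than WT from its uninjured level, and in WT that level is the mean of the mouse that stood apart and 1 other. With a replicate block in the design, 1 member passed, Fkbp5 in Cluster 7, whose WT mouse at 1 d had no UMI.

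The same fit compared each time with the uninjured mice; since the members were selected on values across time points, their part is a description. No member passed the quasi-likelihood test of edgeR with Benjamini-Hochberg adjustment at 1 d against uninjured, where 0.0425% of all tests did. None passed at 7 d (0.0662% of all tests), at 14 d (0.182%) or for the mean of the 3 times (0.0712%). None did in DESeq2 (0.204%, 0.16%, 0.149% and 0.211%) or in limma, which called 345, 37, 80 and 62 of 80026 tests. With a term for the animal series, Tsc22d3 in neurons passed at 14 d. The series was set here from the animal numbers, with 10047 and higher against 9169 and lower, and the labels name no such series. All mice at 14 d are on the higher side and all shallow libraries on the lower, so the term is tied to time and depth. Without WT 1 d replicate 1, which leaves only cKO mice at 1 d, Fkbp5 in Cluster 7 passed at 1 d. At 1 d, 7 d, 14 d and for the mean of times, 10, 4, 7 and 8 of 74 member tests had an unadjusted p under 0.05 (13.5%, 5.41%, 9.46% and 10.8%). So did 6.46%, 7.19%, 7.86% and 6.87% of all tests. The counts were 21, 5, 10 and 13 of 73 without WT uninjured replicate 1, against 8.82%, 11.5%, 11.3% and 10.8% of all tests. In clusters where every condition with a mouse held at least 1 UMI of the gene, the fitted difference between 1 d and uninjured was positive for Fkbp5 in 8 of 8 clusters (0.02 to 3.11, median 1.32), for Zbtb16 in 6 of 6 (0.24 to 2.63, median 0.97) and for Sgk1 in 6 of 8 (-1.10 to 3.44, the latter in Cluster 2, median 0.31), against a median of -0.02 over all genes. For Pdk4 it was positive in 2 of 2 (median 1.02). It was negative for Tsc22d3 in 6 of 8 clusters (median -0.35), for Per1 in 3 of 5 (median -0.14), for Nr3c1 in 7 of 9 (median -0.43) and for Nr3c2 in 8 of 10 (median -0.70). Such medians at 1 d without WT uninjured replicate 1 were 1.79 for Fkbp5, 2.13 for Zbtb16, 0.61 for Sgk1, 0.89 for Pdk4, -0.47 for Tsc22d3, 0.38 for Per1, -0.42 for Nr3c1 and -0.40 for Nr3c2. At 7 d the Fkbp5 difference was negative in 7 of 8 clusters (median -0.47) and at 14 d in 5 of 8 (median -0.50), and that of Tsc22d3 at 7 d in 8 of 8 (median -0.81, and -0.76 without WT uninjured replicate 1); the Fkbp5 medians include that mouse in the reference. That mouse was left out because its Fkbp5 level was high. Its deviation was also the highest of the uninjured mice for Sgk1 and Zbtb16. Leaving it out therefore lowers the uninjured mean of these genes by the choice itself. Their counts, medians and signs without it are no support for a rise. Without it the Fkbp5 difference was positive in 8 of 10 tested clusters at 7 d. It was positive in 9 of 10 at 14 d and in 10 of 10 at 1 d. Zbtb16 was then positive in 10 of 10 at 7 d and at 14 d and in 9 of 10 at 1 d, Sgk1 at 1 d in 8 of 11, and Nr3c1 and Nr3c2 were negative at 1 d in 8 and 6 of 11. Whether a cluster meets the condition of 1 UMI depends partly on the change itself. Without WT uninjured replicate 1, the Per1 median at 1 d over all clusters tested was -0.77 (negative in 5 of 8). It was 0.38 in the 5 that met the condition. For Fkbp5 the median was 2.67 over 10 clusters, against 1.79 in the 6 that met it. With all mice and over all clusters tested, the sign at 1 d was positive in 9 of 10 for Fkbp5 (negative in Cluster 7). There the difference was -1.53 ± 3.49, and the WT mouse at 1 d, a shallow library, had no UMI. The sign was positive in 9 of 10 for Zbtb16 (negative in neurons) and in 8 of 11 for Sgk1. It was negative in 7 of 10 for Tsc22d3, in 6 of 9 for Per1, in 8 of 11 for Nr3c1 and in 8 of 11 for Nr3c2. The Fkbp5 sign was negative in 9 of 10 at 7 d and in 7 of 10 at 14 d. Over all genes, 45939, 37335 and 33955 of 80026 tests were negative at 1 d, 7 d and 14 d (median -0.17 at 1 d). Under the condition of 1 UMI, 28065 of 54918 were negative at 1 d. Without WT uninjured replicate 1 the counts over all tests were 42025, 34025 and 31376 of 76708.

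Other genes of the pathway were taken from 6 lists. The lists, like the members, were chosen with earlier results of these data known. Their values below are therefore not independent support for the pattern of the members. Of 34 other glucocorticoid-induced genes 31 were tested: at 1 d 2 tests of 207 passed (0.0425% of all tests did), both for Lcn2 and both upward. At 14 d 1 passed (0.182% of all tests), a fall of Cdkn1a, and none passed at 7 d, for the mean of times, for genotype or for the interaction. At an unadjusted p under 0.05, 12 tests at 1 d were upward and 11 downward (11.1%, against 6.46% of all tests). In the 142 tests where every condition with a mouse held a UMI, their median difference was 0.27 at 1 d, against -0.02 over all genes, and -0.26 at 7 d, against 0.00. Over all 207 tests it was 0.14, against -0.17, and -0.16, against 0.05. The medians of 136 tests under the same condition were 0.33 and -0.09 without WT uninjured replicate 1. Lcn2, which encodes a secreted iron-binding protein of acute inflammation, stood in endothelial cells at 1046 CPM in WT and 530.5 and 488 CPM in cKO at 1 d, and at 4.15 to 10.7 CPM in the 4 uninjured mice. Here WT uninjured replicate 1 had 10.7 CPM and did not join the mice at 1 d, and the mice at 1 d overlapped no other mouse. The fitted rise was 6.12 ± 0.78 (log2 ± SE, adjusted p 0.0106 by the quasi-likelihood test of edgeR with Benjamini-Hochberg adjustment), with all 3 mice at 1 d above all 4 uninjured mice; without WT uninjured replicate 1 it was 6.47 (adjusted p 0.0335). In the astrocytes of Cluster 5 Lcn2 was at 1215 CPM in WT and 143 and 262 CPM in cKO at 1 d, and had 1 UMI in the 3 uninjured mice together (adjusted p 0.00371 in the same test, 0.000279 without WT uninjured replicate 1). Cdkn1a, which encodes the cell cycle inhibitor p21, was in Cluster 7 at 85.3 and 29.0 CPM in WT and 91.3 and 21.4 CPM in cKO uninjured mice. It was at 8.95, 5.14, 22.7 and 9.99 CPM in the mice at 14 d (-2.36 ± 0.56, adjusted p 0.0464 by the quasi-likelihood test of edgeR with Benjamini-Hochberg adjustment; 3 of 4 mice at 14 d lay below every uninjured mouse). Without WT uninjured replicate 1 the Cdkn1a fall was -1.84 (adjusted p 0.333 by the quasi-likelihood test of edgeR with Benjamini-Hochberg adjustment).

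Of 17 inflammatory genes that glucocorticoids lower, 14 were tested in 34 pairs with a cluster. At 1 d 1 test passed (0.0425% of all tests did), at 7 d 1 (0.0662%) and for the mean of times 1 (0.0712%), and 7 tests at 1 d, all upward, had an unadjusted p under 0.05 (20.6%, against 6.46% of all tests). In Cluster 10 the chemokine gene Ccl2 was at 774 CPM in WT and 907 and 1262 CPM in cKO at 1 d, and at 0, 183 and 0 CPM in the 3 uninjured mice, which the mice at 1 d did not overlap (adjusted p 0.0202 at 1 d by the quasi-likelihood test of edgeR with Benjamini-Hochberg adjustment, 0.125 without WT uninjured replicate 1). Ccl4 in the same cluster was at 117 and 2927 CPM in the WT and 9931 CPM in the cKO uninjured mice, and at 385, 505, 669.9 and 611 CPM at 7 d. Its fitted difference was -2.65 ± 0.57 at 7 d (adjusted p 0.0195) and -1.98 ± 0.45 for the mean of times (adjusted p 0.0301, both by the quasi-likelihood test of edgeR with Benjamini-Hochberg adjustment), although WT uninjured replicate 1 lay below all 4 mice at 7 d, so 2 of the 3 uninjured mice show the direction, and the sign was reversed in limma on mean log values (0.12 and 0.56). Without that mouse the Ccl4 differences were -3.18 (adjusted p 0.00424) and -2.51 (adjusted p 0.00525, both by the same test). With conditions from the cell names the Ccl4 sign was also reversed (1.84 at 7 d and 1.46 for the mean of times). The median difference of this list at 1 d was 0.75 in the 14 tests where every condition with a mouse held a UMI. It was 0.13 in 13 such tests without WT uninjured replicate 1. Over all 34 tests it was 1.13, and 1.92 in 32 tests without that mouse, so the direction of the move depended on the choice of tests.

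No gene passed in any comparison among the 17 receptor chaperones, cofactors and steroid-handling genes (16 tested, 160 tests), the 17 symbols of circadian clock genes (16 in the matrix, 15 tested, 102 tests), the 14 immediate early and dissociation genes (14 tested, 91 tests) and the 12 paralogs of the members (11 tested, 96 tests). Arntl and Bmal1, both on the clock list, name the same gene. The lists overlap: Per2 is a clock gene, a paralog and a glucocorticoid-induced gene here, and Fkbp4 a chaperone and a paralog. At an unadjusted p under 0.05 the share in the 1 d comparison was 6.88%, 9.80%, 15.4% and 10.4% of these tests, against 6.46% of all tests, and DESeq2 and limma were not counted list by list. The interaction gave 21 of 207 tests of the other glucocorticoid-induced genes at an unadjusted p under 0.05 (10.1%), all positive, against 4.03% of all tests. Without WT uninjured replicate 1 there were 5 of 192 (2.60%), against 3.82% of all tests. The median deviation of the other glucocorticoid-induced genes was 0.28 in cKO 1 d replicate 1, 0.18 in WT uninjured replicate 1, 0.15 in cKO 1 d replicate 2 and 0.04 in the WT mouse at 1 d, the 4 highest of the 15 mice, and -0.21 to 0.02 in the other 11. That of the circadian clock genes placed WT uninjured replicate 1 10th of 15. In the interaction 2.20% of the 91 tests of immediate early and dissociation genes had an unadjusted p under 0.05. Without WT uninjured replicate 1 this share moved the other way, upward. For genotype their share was 13.2%, against 3.63% of all tests.

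The RefSeq promoter table (GRCm38.p6, 250 bases before to 50 after each start) held 14 promoters of 6 members. The 6-base site of the glucocorticoid receptor, AGAACA or its reverse complement TGTTCT, was found in 4 of the 14, from Sgk1 and Tsc22d3, and in 19.0% of all 32851 promoters. The full palindrome of AGAACA, 3 bases of any kind and TGTTCT, which reads the same on both strands and contains the site in each orientation, was found in 3 promoters of 32851 (0.00913%), and 1 of them belongs to Sgk1. The cAMP response element TGACGTCA was in 0 of the 14 and in 1.79% of all, and its shorter form, TGACG or CGTCA on the other strand, in 4 of the 14, from Per1, Sgk1 and Tsc22d3, and in 20.8% of all. Fkbp5 had no receptor site in its window. Such matches are a description of letters only, and receptor sites of these genes may lie outside 300 bases. The promoter of Sgk1 with the palindrome and that of Tsc22d3 with 1 site are printed because both genes carry the letters the receptor reads and Sgk1 was the gene most like Fkbp5 over mice; capitals mark the 6-base sites.
Sgk1, chr10:21993640-21993939, plus strand: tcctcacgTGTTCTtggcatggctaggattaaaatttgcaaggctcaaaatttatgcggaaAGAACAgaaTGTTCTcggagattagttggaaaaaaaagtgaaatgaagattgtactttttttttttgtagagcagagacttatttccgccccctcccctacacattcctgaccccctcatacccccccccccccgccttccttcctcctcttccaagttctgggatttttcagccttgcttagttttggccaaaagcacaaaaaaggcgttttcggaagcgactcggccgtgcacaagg
Tsc22d3, chrX:140600473-140600772, minus strand: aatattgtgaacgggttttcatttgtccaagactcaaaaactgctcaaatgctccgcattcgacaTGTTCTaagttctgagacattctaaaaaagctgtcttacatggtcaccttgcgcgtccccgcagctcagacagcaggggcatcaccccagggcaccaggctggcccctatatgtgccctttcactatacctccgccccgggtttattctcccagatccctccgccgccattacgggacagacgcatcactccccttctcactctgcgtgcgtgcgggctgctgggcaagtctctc

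On the mouse genome (GRCm38, GENCODE vM21) the 8 genes lie on different chromosomes. Nr3c1 (ENSMUSG00000024431.15) is at chr18:39410545-39519421 on the minus strand and Nr3c2 (ENSMUSG00000031618.13) at chr8:76899442-77245012 on the plus strand. Fkbp5 (ENSMUSG00000024222.17) is at chr17:28399094-28517527, minus, Tsc22d3 (ENSMUSG00000031431.13) at chrX:140539528-140600659, minus, and Sgk1 (ENSMUSG00000019970.15) at chr10:21882184-21999903, plus. Zbtb16 (ENSMUSG00000066687.5) is at chr9:48654297-48836222, minus, Pdk4 (ENSMUSG00000019577.6) at chr6:5483351-5496309, minus, and Per1 (ENSMUSG00000020893.17) at chr11:69095217-69109960, plus.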

How the data were processed

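Single-cell libraries of 3′ tags (10x v3.1) from mouse spinal cord, 1 per mouse, were analysed from the deposited matrix. The authors counted UMIs with Cell Ranger on mm10 (version not stated), kept cells with over 200 genes and under 25% mitochondrial UMIs, and clustered them with R 4.1.2 and Seurat (20 principal components, resolution 0.5). The deposited values are raw UMI counts per gene and cell. The authors give the mitochondrial share of each cell as a percent. Of 15 columns describing the cells, 8 were not used. The members and lists were chosen with earlier results of these data known.

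Counts were summed per mouse and cluster (at least 10 cells) and given as CPM; depth ranged from 536263 to 9008729 UMIs over 15 mice, and 1 mouse with 1 cell was left out. In 11 clusters with at least 9 mice, edgeR's quasi-likelihood test (version 4.0.16 in R 4.3.3, TMM, filterByExpr, means of 8 conditions, 7 in Cluster 2, which lacked WT at 1 d, no covariate) with Benjamini-Hochberg adjustment in each cluster and a threshold of 0.05 compared 6 contrasts. Alternatives were DESeq2 1.42.0, limma 3.58.1 on mean log values, no TMM, no filter, at least 30 cells, an additive design, a replicate block, a term for the animal series (high against low animal numbers, a split made here), no shallow libraries (median under 1000 UMIs), conditions from the cell names, cells of 500 UMIs or more, 10 or 100 CPM added, and leaving out each mouse. Leaving out cells of shared barcodes was chosen after seeing the data. Replicate numbers were checked for pairing: in 21 pairs of conditions the correlation of the differences between replicates over 9194 genes was -0.42 to 0.62 (median 0.145), over 0.1 in 15, so the replicate block is given as an alternative. The fit was tested on simulated data in which 200 genes were given a log2 change of 2. In Cluster 1 edgeR recovered 78.5% of them for injury and 81.5% for genotype, and in Cluster 6 56% and 73%. DESeq2 recovered 45% for injury in Cluster 6. Only Clusters 1 and 6 were simulated, with no true interaction, so a gene that did not pass may still have changed.

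Named genes are the 8 members; per list and contrast the 3 strongest rises and 3 strongest falls past the threshold, where there were any; the 5 genes most like Fkbp5 over mice and over clusters, and the 1 most like each other member. Python 3.11.15 with numpy 2.4.6, pandas 2.3.3, scipy 1.17.1 and matplotlib 3.10.9 was used for sums, likeness and figures.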

Additional observations from a re-analysis of the deposited data

Results flagged for a closer look

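The first 4 values are single mice far from the rest of their group. For each of the 8 genes, the gap between the most extreme mouse and its nearest neighbour was compared with the whole range of its group in 5 groups (uninjured, 7 d, 14 d, WT and cKO), which gave 40 groups; 4 exceeded Dixon's 95% critical value. Chance gives about 1 in 20 groups for genes chosen without sight of the values; these genes were selected on values across mice and time points, so the critical value only picks out mice here and tests nothing. Fkbp5 in WT uninjured replicate 1 was at 0.72 among 4 uninjured mice whose others lay between -0.47 and -0.41, and Per1 in the same mouse was at 0.39 among the 7 WT mice. Sgk1 in WT 7 d replicate 2 was at -0.31, below the other 3 mice at 7 d (-0.07 to -0.02). Nr3c1 in WT 14 d replicate 1 was at -0.28, below the other 3 mice at 14 d (0.21 to 0.30). The 40 groups share mice, and the genes vary together over mice, so the 4 are not independent. The cause of each was not tested.

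A difference between genotypes in the change after injury passed the threshold for 2 genes outside the set, both in the astrocytes of Cluster 7 and both named after their values were seen. Kcnj3 (adjusted p 0.00506 by the quasi-likelihood test of edgeR with Benjamini-Hochberg adjustment) was at 108, 670.2, 140.2, 1138, 960.4 and 1089 CPM in the 6 cKO mice after injury, at 13.04 and 10.7 CPM in the 2 uninjured cKO mice and between 0 and 125 CPM in the 7 WT mice. The lowest of the injured cKO mice, a shallow library at 108 CPM, lay within the WT range. Col16a1 (adjusted p 0.0353 by the quasi-likelihood test of edgeR with Benjamini-Hochberg adjustment) was at 72.1, 351, 0, 46.2, 114 and 117 CPM in the same 6 cKO mice, at 0 and 5.34 CPM in the uninjured cKO mice, and at 54.6 and 36.2 CPM in the uninjured WT mice. In the 5 WT mice after injury it was at 0, 0, 37.7, 44.7 and 41.2 CPM, which the injured cKO values overlapped. Neither gene was called by DESeq2 among its 1 call, and with a condition at 0 for both genes no fold is given. Both lost the threshold in at least 1 of the fits that left out a mouse. At least 1 of the 2 lost it without the shallow libraries.

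Among the clusters with too few mice to be tested, Zbtb16 in the red blood cells of Cluster 17 was at 94.5 CPM in 3 injured mice pooled (31 UMIs), against 14.1 CPM in the 1 uninjured mouse (1 UMI), a ratio of 6.73 with a lower 95% counting limit of 1.12. It was the 1 pair above a ratio of 1 by that limit among 40 pairs of a gene and a cluster looked at. The limit leaves out the variation between mice and rests on 1 UMI in 1 mouse, and the gene was selected on values across time points, so it is no test. Which cells the transcripts came from was not tested.

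The limits are those of the design. WT at 1 d was 1 mouse from a shallow library, each other condition had 2 mice, fewer in some clusters (1 cKO uninjured mouse in 6 of the 11 tested, and no WT mouse at 1 d in Cluster 2), batch equalled replicate number, and the uninjured mice were not taken at every time. Time of day, hormone levels and stress before sampling are not given in the labels, so injury, surgery and handling cannot be told apart in the levels of these genes. Free RNA, doublets and shared barcodes were left in, and 4 shallow libraries limit what a count of 0 can show.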

How the results depend on the processing

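Under alternatives other than leaving out a mouse, 555 fold changes kept direction and side of the threshold or stayed within their spread, 55 moved, 25 lost the threshold, 4 gained it and 13 changed sign; leaving out a mouse, the numbers were 732, 39, 42, 1 and 18. The difference between the 2 highest clusters of each gene stayed within its spread in 36 of 36 comparisons. Counts of genes past the threshold moved most. For the mean of times (57) they were 169 in DESeq2, 401 without a filter on low counts, 260 with at least 30 cells, 816 with a term for the animal series, 7 without the shallow libraries and 11 with conditions from the cell names. At 1 d (34) they were 163 in DESeq2, 68 without TMM, 280 without a filter, 101 with at least 30 cells, 91 in an additive design, 58 with the replicate block, 96 with the animal series and 345 in limma. At 7 d (53) they were 128 in DESeq2, 393 without a filter, 109 with at least 30 cells, 97 with the replicate block, 627 with the animal series, 18 without the shallow libraries and 6 with the cell names. At 14 d (146) they were 238 without TMM, 829 without a filter, 224 with at least 30 cells, 231 in an additive design, 1551 with the animal series, 40 with the cell names and 80 in limma. For genotype (0 in edgeR, 2904 at an unadjusted p under 0.05, 0 in DESeq2) they were 3 without TMM, 35 without a filter, 4 in an additive design, 3 with the replicate block, 5 with the animal series, 3 without the shallow libraries, 18 with the cell names, 2 in cells of 500 UMIs or more and 106 in limma. For the interaction (2) they were 1 in DESeq2, 33 without a filter, 6 with at least 30 cells, 9 with the replicate block, 15 with the animal series, 1 without the shallow libraries, 42 with the cell names, 4 in cells of 500 UMIs or more, 17 in limma and 1 without cells of shared barcodes, an alternative chosen after seeing the data. Members passed in the interaction 1 time in DESeq2, 5 without a filter, 1 with the replicate block, 3 with the animal series, 2 with the cell names and 1 in cells of 500 UMIs or more, and 1 time at 14 d with the animal series (Tsc22d3 in neurons). Leaving out 1 mouse at a time gave 2 (without WT uninjured replicate 2) to 443 genes (without WT uninjured replicate 1) for the mean of times, 14 (without cKO uninjured replicate 2) to 54 (without WT 14 d replicate 1) at 1 d, 10 (without cKO uninjured replicate 2) to 270 (without WT uninjured replicate 1) at 7 d, 37 (without cKO 14 d replicate 1) to 333 (without WT uninjured replicate 1) at 14 d, 0 to 15 for genotype and 0 to 23 for the interaction (both highest without WT uninjured replicate 2), with 0 to 4 members in the interaction (highest without WT uninjured replicate 2) and 0 to 1 at 1 d (Fkbp5 in Cluster 7, without WT 1 d replicate 1). A condition left with 1 mouse was assumed to vary like the others. Signs changed in these differences: genotype in Fkbp5 in Cluster 6 (-0.45 without the shallow libraries; -0.53 to 1.10 leaving out 1 mouse), Nr3c1 in endothelial cells (0.028 without the shallow libraries, 0.034 in limma), Per1 in pericytes (0.15 in an additive design, 0.11 with the cell names, 0.018 in limma; -1.56 to 0.43), Tsc22d3 in Cluster 7 (-0.10 to 0.41) and Zbtb16 in endothelial cells (-0.22 to 0.64), and the interaction in Nr3c1 in endothelial cells (-0.043 without TMM; -0.067 to 0.12), Nr3c2 in Cluster 7 (-0.094 with at least 30 cells; -0.094 to 0.87), Pdk4 in Cluster 5 (0.094 with the cell names) and Per1 in pericytes (2.00 in the main fit; -0.15 without WT uninjured replicate 1, to 2.51). Ccl4 in Cluster 10 rose with the cell names (1.46 for the mean of times, 1.84 at 7 d) and in limma (0.56 and 0.12). The likeness to Fkbp5 over mice moved for Sgk1 (0.892 with 10 CPM added, 0.954 without the shallow libraries), Per1 (0.533 and 0.810 in the same order), Nr3c1 (-0.0125) and Nr3c2 (-0.103, both without the shallow libraries); without WT uninjured replicate 1, an alternative chosen after seeing the data, none of the 10 moved beyond its spread. The cause of these changes was not tested. In the shallow libraries depth limits what a count of 0 can show.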
